A study of Mus musculus with 31 samples.

Results

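The nuclear genes of oxidative phosphorylation were examined in mouse gastrocnemius, a mixed but mostly fast calf muscle. Members were the protein-coding genes whose symbols begin with Nduf, Uqcr, Cox4 to Cox8 or Atp5, together with Sdha, Sdhc, Sdhd and Cyc1, that held at least 10 counts in at least 3 libraries. Ndufs5 and any gene within 10 Mb of Trim63 were left out by the rule, and 0 candidates lay that close. Of 39017 gene identifiers in the count files, 89 were members. They comprised 37 genes of complex I, 8 assembly factors of complex I, 3 genes of complex II, 9 of complex III, 15 of complex IV and 17 of complex V. Among the other symbols that matched, 11 were not protein-coding and 3, Cox6b2, Cox7b2 and Cox8c, did not reach the count minimum.

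Oxidative phosphorylation takes place in the inner mitochondrial membrane. Complexes I and II pass electrons to coenzyme Q, complex III hands them to cytochrome c, complex IV reduces oxygen, and complex V uses the resulting proton gradient to make ATP. Most subunits are encoded in the nucleus and imported, while a few core subunits are encoded by mitochondrial DNA, so building each complex needs both genomes and dedicated assembly factors. In muscle these genes are most active in oxidative fibres, and their shared expression is known to respond to the coactivator PGC-1alpha and to the transcription factors NRF1, GABP and ERR-alpha.

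The study crossed loss of MuRF1, a muscle ubiquitin ligase encoded by Trim63, with sex and diet. Of 31 polyA RNA-seq libraries, 30 were placed in 8 groups. Male wild type mice gave 4 libraries on chow and 4 on high fat, male knockout mice 4 and 3, female wild type mice 4 and 4, and female knockout mice 4 and 3. The high-fat diet contained 45% fat from lard and was given from 8 weeks of age to mice that had eaten chow since weaning, and all muscles were collected at 30 weeks of age. The labels name no strain or construct for the knockout, and powdered whole muscle was used, so fewer cells of a type and less RNA per cell cannot be told apart. Each library was assigned by the animal number in its description. In 4 libraries the record's own title names another group, and 1 library whose animal number is in no title was left out of the groups.

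Trim63 (chromosome 4, 134315120 to 134329629, mm10) was at 0.47 to 6.24 CPM in the knockout libraries and at 183 to 254 CPM in wild type libraries, except for 109 CPM in male wild type chow 3, 130 CPM in female wild type chow 1 and 119 CPM in female wild type high fat 4. For Trim63, Krt10 and the summed levels of gene lists, CPM are counts scaled to each library's total. For members they are scaled to the library's effective total, which includes its TMM factor. The average genotype difference of Trim63 was -7.19 ± 0.26 on the log2 scale (standard error, here and below), with an adjusted p of 4.69e-15. Library totals ran from 9342028 to 14919379 counts. All 8 fast-fibre markers, Acta1, Ckm and Myh4 among them, were detected in every group, with a summed level of at least 135700 CPM. In 3 female chow libraries (wild type 3, knockout 1 and knockout 3) Krt10, a skin keratin, lay at 22.4 to 47.4 CPM. All other libraries had at most 2.82 CPM. Counts of called members and some medians are also given without these 3 libraries for several contrasts. Values of single genes and counts by complex mostly include them.

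All 89 members passed the filter on low counts and were tested with edgeR's quasi-likelihood test, with p-values adjusted over 14024 genes and called at an adjusted p under 0.05. Per kilobase of exon, the level of Cox6a2, the muscle isoform of a complex IV subunit, was highest at 879 CPM per kb. Atp5a1 and Atp5b, the alpha and beta subunits that form the catalytic head of ATP synthase, followed at 750 and 654 CPM per kb. Lowest were Cox4i2, the oxygen-responsive isoform of subunit 4, at 1.58 CPM per kb and Ndufb2, an accessory subunit of complex I, at 2.21 CPM per kb. Length here counts all annotated exons, 5628 bases for Ndufb2 against a median of 1675 bases over members. Ndufb2 also shares 145 exon bases with another gene on its strand, and how far either lowers its value was not tested. By complex, the median level per kilobase was 230 CPM for complex III, 210 CPM for complex II, 159 CPM for complex IV, 154 CPM for complex V and 101.2 CPM for complex I. The assembly factors, which act during construction and leave the finished enzyme, had a median of 12.2 CPM per kb.

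The members varied together between libraries. For each library the deviation of each member from its mean log2 CPM was taken, and the median over the 89 genes was used as a summary. In female wild type chow this median was -0.04, -0.25, -0.38 and -0.17, and in female knockout chow it was -0.30, -0.20, -0.35 and -0.19. On high fat it was 0.17, 0.02, 0.13 and 0.45 in female wild type and -0.05, 0.61 and -0.01 in female knockout. All high-fat females therefore lay above all females of the same genotype on chow, but in the knockouts the highest value belonged to a single library, high fat 2.

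In male wild type the medians were -0.02, 0.05, -0.02 and 0.18 on chow and -0.07, -0.18, 0.35 and -0.19 on high fat. In male knockout they were 0.30, 0.31, 0.24 and 0.13 on chow and -0.19, -0.12 and -0.03 on high fat. The wild type groups overlapped, with high fat 3 far above the other 3 high-fat libraries, whereas all male knockouts on high fat lay below all on chow. Across the 30 libraries, after removing group means, the median correlation of a member with the median member was 0.87, and 64 of 89 members exceeded 0.8. Members share each library's scaling, so this describes the libraries and is not a test. Ndufs1, Cox4i2, Ndufa4l2 and Uqcrc2 were least alike the rest, at 0.14, 0.17, 0.22 and 0.23.

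**Figure D1:**
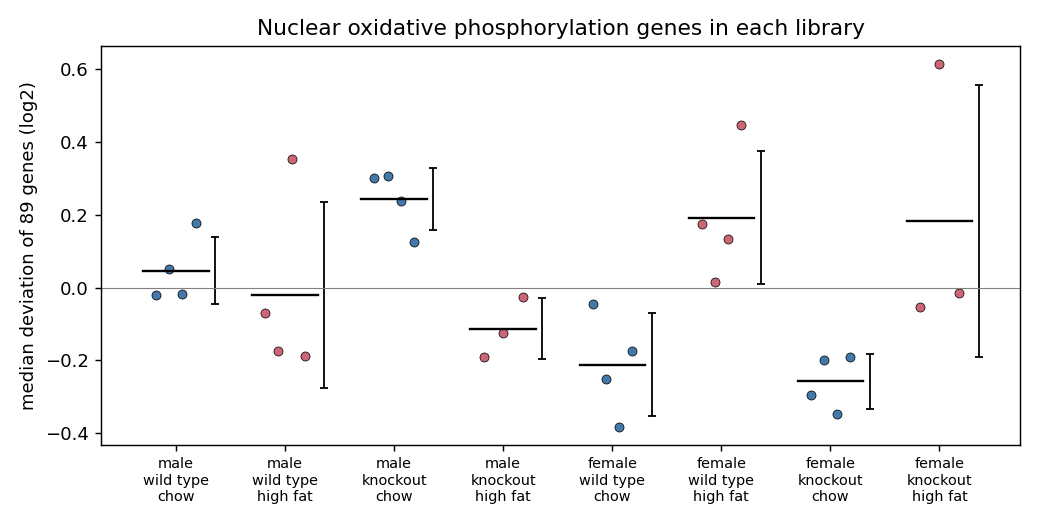
Median deviation of the 89 genes (log2) in each library, by group. Points are libraries, blue for chow and red for high fat, horizontal lines are group means and bars are 1 SD. Female chow libraries all lie below 0, and female knockout high fat 2 is the highest at 0.61.

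The response to diet differed between the sexes in most of these genes. The sex-by-diet difference, the high-fat minus chow change in females less that in males, averaged over genotypes, was called in 75 of 89 members, 74 of them higher and 1 lower, where 45.2% of all tested genes were called (21.6% higher and 23.6% lower). The median over members was 0.65 on the log2 scale, against -0.03 over all tested genes. By complex, 34 of 37 complex I genes, 8 of 9 of complex III, 13 of 15 of complex IV and 14 of 17 of complex V were higher, as were 2 of 3 of complex II and 3 of 8 assembly factors. The median difference was 0.78 in complex IV, 0.68 in complex I, 0.65 in complex V, 0.57 in complex III, 0.32 in complex II and 0.28 among the assembly factors.

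Among complex I genes, Ndufa11 (chromosome 17, 56717767 to 56722141, mm10), which encodes a membrane-arm accessory subunit, had the smallest p. In females on chow it was at 90.4, 81.3, 74.8 and 89 CPM in wild type and at 74.5, 83.4, 70.5 and 85.4 CPM in knockout. On high fat the females were at 133, 122, 146 and 146 CPM in wild type and at 106, 181 and 111 CPM in knockout. No high-fat female overlapped the chow females of its genotype. The males were at 91.0, 110, 94.6 and 100.7 CPM (wild type chow), 85.1, 84.2, 134 and 81.9 CPM (wild type high fat), 122, 125, 118 and 108 CPM (knockout chow) and 82.5, 90.1 and 91.3 CPM (knockout high fat). Wild type males overlapped between diets, and knockout males on high fat were all below those on chow. The sex-by-diet difference of Ndufa11 was 0.96 ± 0.15 (adjusted p = 1.07e-05), with diet changes of 0.71 ± 0.14 in female wild type and 0.76 ± 0.15 in female knockout.

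Ndufs7 (chromosome 10, 80249121 to 80256794) encodes a core subunit carrying an iron-sulfur cluster close to the coenzyme Q site. Female wild type rose from 172, 177, 139 and 158 CPM on chow to 257, 256, 295 and 274 CPM on high fat, and female knockout from 150, 164, 138 and 167 CPM to 203, 344 and 213 CPM. In both genotypes the diets did not overlap. Male wild type stood at 179, 244, 184 and 217 CPM on chow and 191, 191, 264 and 187 CPM on high fat, and male knockout at 266, 270, 259 and 227 CPM and 176, 196 and 211 CPM. Only the male wild type groups overlapped. The sex-by-diet difference was 0.92 ± 0.14 (adjusted p = 1.31e-05). Ndufv3, an accessory subunit of the NADH-binding arm, and Ndufb10, a membrane-arm subunit, had differences of 1.05 ± 0.16 and 0.97 ± 0.16, with adjusted p of 1.83e-05 and 2.96e-05.

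Ndufs1, the largest subunit of the peripheral arm and a carrier of iron-sulfur clusters, was the single member with a lower value, at -0.34 ± 0.12 (adjusted p = 0.0166). It lay at 440, 415, 351 and 366 CPM in female wild type chow, 426, 350, 273 and 293 CPM in female wild type high fat, 368, 415, 338 and 383 CPM in female knockout chow and 371, 381 and 340 CPM in female knockout high fat. Males were at 398, 320, 393 and 306 CPM (wild type chow), 428, 400, 441 and 378 CPM (wild type high fat), 335, 348, 343 and 329 CPM (knockout chow) and 380, 405 and 377 CPM (knockout high fat). The female diets overlapped in both genotypes, and the male diets overlapped in wild type but not in knockout. None of the 4 single diet contrasts was called for Ndufs1, and its sex-by-diet call was lost without female knockout chow 2 (adjusted p = 0.0512).

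Complex II, succinate dehydrogenase, links the citrate cycle to the respiratory chain. Its flavoprotein subunit Sdha was at 760 to 912 CPM in female wild type chow and at 749 to 1008 CPM in female wild type high fat, so the diets overlapped, and its sex-by-diet difference was -0.03 ± 0.09 (95% interval -0.22 to 0.15). The membrane anchors Sdhc and Sdhd had differences of 0.52 ± 0.11 and 0.32 ± 0.11 (adjusted p = 0.000339 and 0.0146). Sdhc was at 279, 250, 218 and 259 CPM in female wild type chow and at 335, 305, 363 and 339 CPM in female wild type high fat, without overlap.

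In complex III, Uqcrq, a small subunit near the cytochrome b core, had the smallest p. It was at 183, 170, 134 and 163 CPM in female wild type chow against 252, 233, 295 and 313 CPM on high fat, and at 150, 179, 144 and 179 CPM in female knockout chow against 201, 340 and 203 CPM. Male knockout values were 250, 266, 251 and 219 CPM on chow and 146, 161 and 187 CPM on high fat, while male wild type values spread from 167 to 217 CPM and from 152 to 273 CPM. The diets overlapped in male wild type only. The sex-by-diet difference of Uqcrq was 0.97 ± 0.17 (adjusted p = 5.41e-05). Cyc1, cytochrome c1, had 0.50 ± 0.11 (adjusted p = 0.000585), and Uqcrc2, a core protein of the matrix side, had -0.07 ± 0.11 (95% interval -0.29 to 0.15).

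In complex IV, Cox5b (chromosome 1, 36691449 to 36693681), a zinc-binding nuclear subunit, led. Females on chow were at 218, 197, 166 and 197 CPM in wild type and 176, 199, 164 and 198 CPM in knockout, and on high fat at 292, 267, 317 and 341 CPM and at 241, 386 and 237 CPM. Neither genotype overlapped between diets. Male knockouts were at 308, 309, 282 and 261 CPM on chow and 174, 183 and 220 CPM on high fat, and male wild types at 213, 251, 224 and 259 CPM and 209, 212, 302 and 178 CPM. The sex-by-diet difference was 0.98 ± 0.15 (adjusted p = 1.12e-05).

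Several complex IV subunits exist as a muscle and a ubiquitous isoform. The muscle isoform Cox6a2 had a sex-by-diet difference of 0.98 ± 0.16 (adjusted p = 2.49e-05) and its partner Cox6a1 0.40 ± 0.19 (adjusted p = 0.0802). The muscle isoforms Cox7a1 and Cox8b had 0.78 ± 0.17 and 0.78 ± 0.26, and their partners Cox7a2 and Cox8a 0.59 ± 0.16 and 0.51 ± 0.12, all 4 called. With offsets for GC content and length, described further on, none of these 4 was called, at 0.15 for Cox7a1, 0.07 for Cox8b, 0.15 for Cox7a2 and -0.15 for Cox8a (adjusted p = 0.196, 0.761, 0.199 and 0.217). Cox7a2l, which helps complexes III and IV to associate, had 0.40 ± 0.14 (adjusted p = 0.0156), and 0.12 with offsets (adjusted p = 0.249). Cox4i1 had 0.86 ± 0.15 (adjusted p = 4.17e-05) and the scarce Cox4i2 0.89 ± 0.39 (adjusted p = 0.061). Of the NDUFA4 pair, Ndufa4, long counted to complex I and later placed in complex IV, had 0.49 ± 0.15 (adjusted p = 0.00826), and Ndufa4l2 had 0.42 ± 0.23 (adjusted p = 0.141). Differences between the isoforms of a pair were not tested.

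In complex V, Atp5d (chromosome 10, 80138632 to 80145818), the delta subunit of the central stalk, had the smallest p of all members. Its levels were 252, 239, 195 and 230 CPM in female wild type chow, 364, 369, 469 and 379 CPM in female wild type high fat, 210, 237, 188 and 233 CPM in female knockout chow and 281, 459 and 296 CPM in female knockout high fat. Males were at 253, 355, 279 and 314 CPM (wild type chow), 264, 263, 396 and 245 CPM (wild type high fat), 367, 373, 356 and 307 CPM (knockout chow) and 234, 248.6 and 257 CPM (knockout high fat). Females on high fat were all above those on chow, and male knockouts on high fat were all below. The sex-by-diet difference was 1.00 ± 0.15 (adjusted p = 1.03e-05). Atp5g1, which encodes the membrane ring subunit c, had 0.90 ± 0.15 (adjusted p = 2.52e-05), though near-identical copies elsewhere held counts equal to 24.6% of its own. The catalytic head subunits Atp5a1 and Atp5b had 0.31 ± 0.11 and 0.28 ± 0.11 (adjusted p = 0.0196 and 0.0331). Atp5s had 0.21 ± 0.16 (adjusted p = 0.268).

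**Figure D2:**
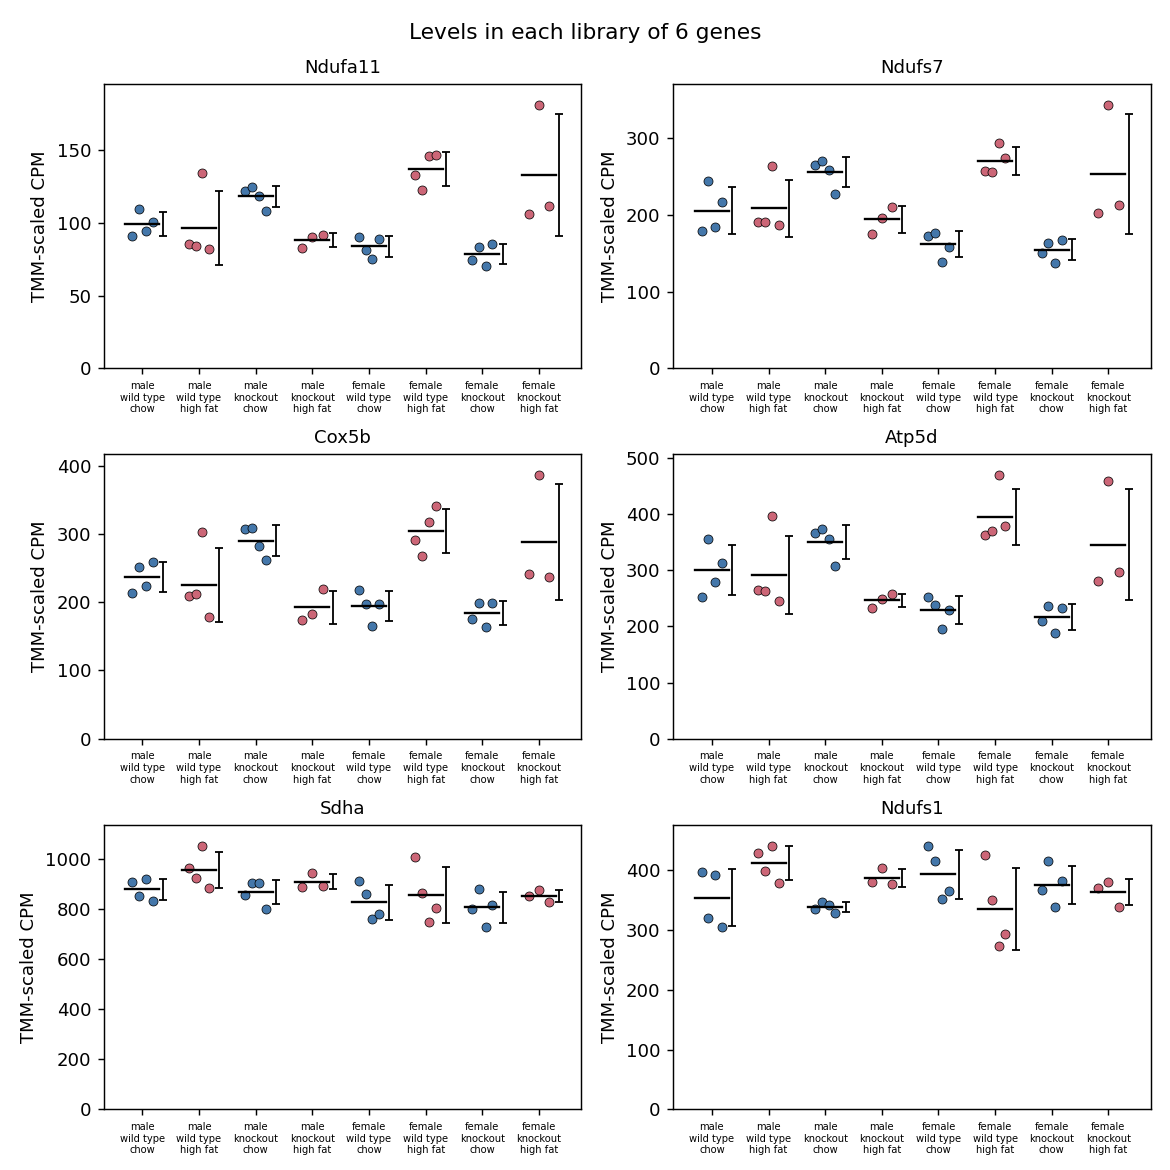
TMM-scaled CPM of Ndufa11, Ndufs7, Cox5b, Atp5d, Sdha and Ndufs1 in each library. Points are libraries (blue chow, red high fat), lines are group means and bars 1 SD. The first 4 genes are higher in all high-fat females than in chow females of the same genotype, while Sdha and Ndufs1 overlap between diets in females.

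Within single strata, members rose on high fat in females of both genotypes and fell in male knockouts. In female wild type, 51 of 89 members rose on high fat and 0 fell, where 12.9% of all tested genes rose, and the members' median was 0.41. In 41 members all high-fat libraries lay above all chow libraries, which held for 11.3% of all tested genes. In female knockout, 48 rose and 0 fell, where 10.4% of all tested genes rose, with a median of 0.46, and 54 members did not overlap against 16.1% of all tested genes. The female strata shared 40 of these calls, 78.4% of the wild type list and 83.3% of the knockout list. How far the strata share calls over all tested genes is not given here. By complex, 11 of 15 complex IV, 22 of 37 complex I, 6 of 9 complex III, 10 of 17 complex V and 2 of 3 complex II genes rose in wild type, and 0 of 8 assembly factors did. In knockout the counts were 9, 23, 5, 9 and 0, with 2 assembly factors.

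The genes with the smallest p in female wild type were Ndufs7 (0.74 ± 0.14), Atp5d (0.79 ± 0.15), Atp5g1 (0.76 ± 0.14), Ndufa11 (0.71 ± 0.14) and Cyc1 (0.53 ± 0.11). In female knockout they were Ndufa11 (0.76 ± 0.15), Ndufb7 (0.89 ± 0.18), Ndufs7 (0.71 ± 0.15), Ndufv3 (0.77 ± 0.17) and Ndufa13 (0.77 ± 0.17), all in complex I. Without female knockout high fat 2, whose median deviation was the highest of all, 0 members were called in female knockout and the median was 0.20. Without the 3 libraries high in Krt10, 2 of which were female knockout chow, 0 members were called there as well, with a median of 0.40, while 28 were called in female wild type. Without female wild type chow 3 alone 31 were called in female wild type, and without female knockout chow 3 alone 30 in female knockout. When libraries were grouped by the record's title, the female wild type count was 0 (28 at an unadjusted p under 0.05) and the female knockout count 70. That grouping counts male knockout high fat 3 and female knockout chow 4 as wild type, with Trim63 at 1.80 and 0.87 CPM. It counts female wild type chow 4 and high fat 4 as knockout, with Trim63 at 221 and 119 CPM. In all of these, Trim63 followed the animal number. For none of the refits in this paragraph is the share of all tested genes given here.

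In male wild type no member was called between diets by edgeR (1 at an unadjusted p under 0.05, and 0 by DESeq2), where 0.349% of all tested genes were called, and the members' median was -0.06. The 3 smallest p-values belonged to the assembly factor Ndufaf4 (-0.34 ± 0.14, adjusted p = 0.335), the accessory subunit Ndufb4 (-0.22 ± 0.11, adjusted p = 0.485) and Ndufs1 (0.22 ± 0.11, adjusted p = 0.496). In male knockout 5 members fell and 0 rose, where 1.83% of all tested genes fell, and the median was -0.36. Cox5b (-0.59 ± 0.16), Cox6a2 (-0.60 ± 0.17), Ndufv3 (-0.57 ± 0.17), Uqcrq (-0.58 ± 0.18) and Atp5d (-0.51 ± 0.16) had adjusted p-values between 0.0261 and 0.0498. In 66 of 89 members all male knockouts on high fat were below all on chow, which held for 13.7% of all tested genes. The count of called members depended on single libraries, from 0 without male knockout chow 1, chow 2, high fat 1 or high fat 2 to 14 without chow 4, and was 14 by DESeq2. Leaving out male knockout chow 3 gave 1 and high fat 3 gave 3. The 1.83% of all tested genes belongs to the main fit, and shares under these alternatives are not given here.

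**Figure D3:**
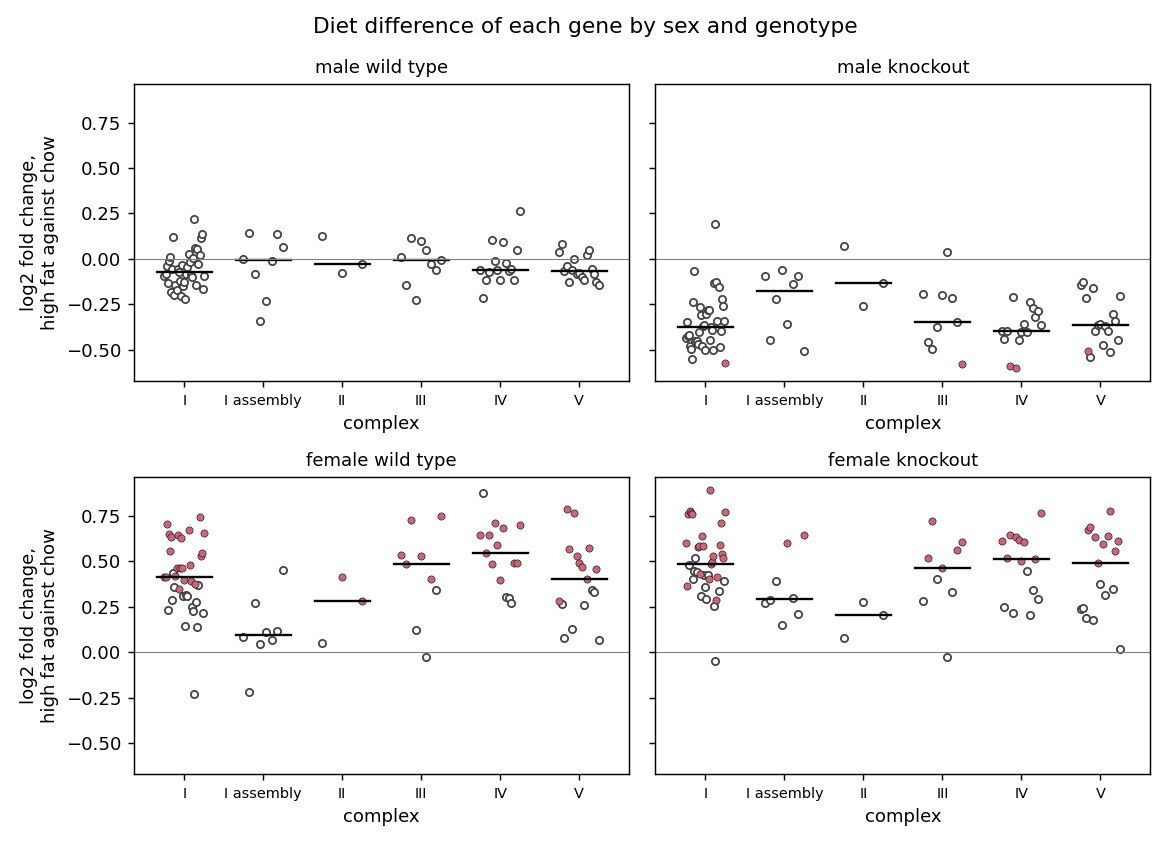
Log2 fold change on high fat against chow of each member, by complex, in the 4 sex and genotype strata. Filled red points passed the adjusted p of 0.05, open points did not, and lines are medians. Medians are near 0 in male wild type, at -0.36 over all members in male knockout, and at 0.41 and 0.46 in female wild type and knockout.

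No member passed the test for genotype. Averaged over sex and diet, 0 of 89 members were called by edgeR (1 at an unadjusted p under 0.05, and 0 by DESeq2), where 4.39% of all tested genes were called, and the median was 0.01. Ndufaf4, a complex I assembly factor, had the smallest p, at 0.21 ± 0.07 (adjusted p = 0.0908). It was called at 0.24 with a term for replicate number (adjusted p = 0.0253) and at 0.27 without the 3 wild type libraries of intermediate Trim63 (adjusted p = 0.0131). Ndufa4l2 (-0.22 ± 0.12, adjusted p = 0.281) and Cyc1 (-0.10 ± 0.06, adjusted p = 0.305) followed. For each of the 89 members the fitted average difference lay between -0.22 and 0.21.

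In single strata the genotype counts were also 0. In males on chow 8 members had an unadjusted p under 0.05 (12 by DESeq2, which called 0), where 6.95% of all tested genes were called, and the median was 0.19, with 83 of 89 values above 0. Atp5g2, a gene for ring subunit c, had 0.34 ± 0.13 (adjusted p = 0.104), Ndufaf8 0.48 ± 0.19 (adjusted p = 0.118) and Cox6a2 0.37 ± 0.15 (adjusted p = 0.137). In the same contrast 8 of 8 fibroblast markers, 6 of 7 macrophage markers and 4 of 6 endothelial markers fell, and the summed fibroblast level was 648 to 1211 CPM in wild type and 184 to 711 CPM in knockout. The summed macrophage level was 44.5 to 84.9 CPM in wild type and 16.4 to 52.8 CPM in knockout. The summed endothelial level was 215 to 364 CPM in wild type and 130 to 257 CPM in knockout, and no marker of the 3 lists was at 0. Their part in the members' values was not tested. Without male wild type chow 4, Atp5g2 was called (0.44, adjusted p = 0.0392).

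In males on high fat, 0.264% of all tested genes were called and the members' median was -0.10, with 1 member at an unadjusted p under 0.05. In females on chow the background was 0.0927%, the median -0.04 and 0 members had an unadjusted p under 0.05. In females on high fat the background was 0.0713%, the median 0.02 and 1 member, Cyc1 (-0.33 ± 0.12, adjusted p = 0.455), had an unadjusted p under 0.05. DESeq2 called 0 members in each of these contrasts, with 1, 0 and 1 at an unadjusted p under 0.05. The genotype effect was not called as different between diets or sexes in any member. For genotype by diet the median was -0.12, 4 members had an unadjusted p under 0.05 (4 by DESeq2) and 0.107% of all tested genes were called, with Cox8a (-0.27 ± 0.12), Uqcrq (-0.36 ± 0.17) and Cyc1 (-0.23 ± 0.11) first. For genotype by sex the median was -0.06, 0 members had an unadjusted p under 0.05 (1 by DESeq2) and the background was 0.0285%.

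Averaged over strata, high fat raised a single member, 1.12% of the 89, near the 0.827% of all tested genes called in either direction. Of the members, 31 had an unadjusted p under 0.05. DESeq2 called 8. The member was Ndufs8, a core subunit with iron-sulfur clusters, at 0.24 ± 0.06 (adjusted p = 0.0443). Ndufs8 lay at 100, 91.3, 78.4 and 88.9 CPM in female wild type chow, 130, 121, 133 and 134 CPM on high fat, 84.5, 93.8, 84.3 and 89.2 CPM in female knockout chow and 111, 159 and 114 CPM on high fat. Males were at 83.3, 107, 98.5 and 97.8 CPM (wild type chow), 100, 99.6, 132 and 86.0 CPM (wild type high fat), 122, 117, 113 and 100 CPM (knockout chow) and 93.7, 99.1 and 98.4 CPM (knockout high fat). The diets were apart in both female genotypes and in male knockouts, there in the opposite direction. The call was lost under most alternatives, for example without female knockout high fat 2 (0.18, adjusted p = 0.149).

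Between the sexes, averaged over genotype and diet, 9 members were called, 2 higher and 7 lower in females, where 30.8% of all tested genes were called (17.4% higher and 13.4% lower). The assembly factor Ndufaf5 had the smallest p, at 0.42 ± 0.07 (adjusted p = 4.58e-05). It was at 40.8, 40.3, 40.0 and 48.7 CPM in female wild type chow and 37.7, 42.8, 43.2 and 59.7 CPM on high fat, and at 33.6, 36, 37 and 35.4 CPM in female knockout chow and 45.3, 69.6 and 46.6 CPM on high fat. Males spread from 26.5 to 42.6 CPM over their 4 groups, so the sexes overlapped. Cox6a1, the ubiquitous partner of Cox6a2, was also higher (0.31 ± 0.10, adjusted p = 0.0135).

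Among those lower in females were the complex I genes Ndufs4 (-0.31 ± 0.08) and Ndufb4 (-0.23 ± 0.06), the assembly factor Ndufaf4 (-0.23 ± 0.07), Atp5c1, the gamma subunit of the ATP synthase rotor (-0.18 ± 0.06), Cox4i1 (-0.21 ± 0.07) and Atp5l (-0.22 ± 0.08). Near-identical copies of Atp5l held counts equal to 25.2% of its own. Without the 3 libraries high in Krt10 the count was 4, and without female knockout high fat 2 it was 26, with the shares of all tested genes not given here. In the same contrast 8 of 8 slow-fibre markers (median 0.91), 8 of 8 fibroblast markers (median 0.81), 6 of 7 macrophage markers (median 0.65), 3 of 6 adipocyte markers and 4 of 5 Schwann cell markers were higher in females, and 3 of 8 fast-fibre markers were lower. The summed slow-fibre level was 2038 to 4339 CPM over the female groups and 890 to 2384 CPM over the male groups. The summed fibroblast level was 533 to 2525 CPM and 184 to 1434 CPM, and the macrophage level 43.1 to 148 CPM and 16.4 to 97.9 CPM. Their part in the members' values was not tested.

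The sex-by-diet values moved with the length and base composition of the genes. Over all tested genes the median difference ran from 0.35 in the shortest to -0.39 in the longest of 5 equal length classes, and from -0.37 in the lowest to 0.32 in the highest of 5 GC classes. Members are short, with a median exon length of 1675 bases against 4307 bases for all tested genes, and 63 of 89 were in the shortest class. Their median there was 0.72, and in the other length classes 0.52 (14 members), 0.42 (8), 0.60 (3) and, for Ndufs1 alone, -0.34. Across the 5 GC classes the members' medians lay between 0.51 and 0.82, above the median of all genes in each.

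When GC content and length were fitted as offsets, 56 members were called, all higher, where 36.6% of all tested genes were called, and the members' median was 0.36. By complex, 27 of 37 complex I, 6 of 9 complex III, 8 of 15 complex IV, 12 of 17 complex V and 1 of 3 complex II genes were called, with 2 of 8 assembly factors. Cox5b had 0.74 (adjusted p = 5.1e-06), Ndufv3 0.90 and Atp5g1 1.03, while Ndufa11 came to 0.38, Ndufs7 to 0.36, Atp5d to 0.49, Cox6a2 to 0.47 and Ndufb10 to 0.51, all called. The call was lost in 23 members and gained in 4, and 33 of 89 were not called with offsets. Among those that lost it were Ndufs1 (-0.05), Cyc1 (-0.01), Sdhd (0.03), Atp5a1 (0.06), Atp5b (0.19), Atp5g2 (0.08), Cox7a1, Cox7a2, Cox7a2l, Cox8a and Cox8b. The sign turned in 6 members, of which Cyc1, Cox8a (-0.15) and Ndufc2 (-0.03) had been called without offsets and Cox6a1 (-0.37), Ndufa4l2 (-0.22) and Ndufaf6 (-0.06) had not, and none of the 6 was called with them. In the strata the offsets gave medians of 0.27 in female wild type (38 higher), 0.23 in female knockout (36 higher), -0.03 in male wild type (0 called) and -0.17 in male knockout (9 lower). Stratum shares of all tested genes with offsets are not given here, and those of the main fit do not apply. Cyc1 in female wild type then had 0.06 (adjusted p = 0.754).

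**Figure D4:**
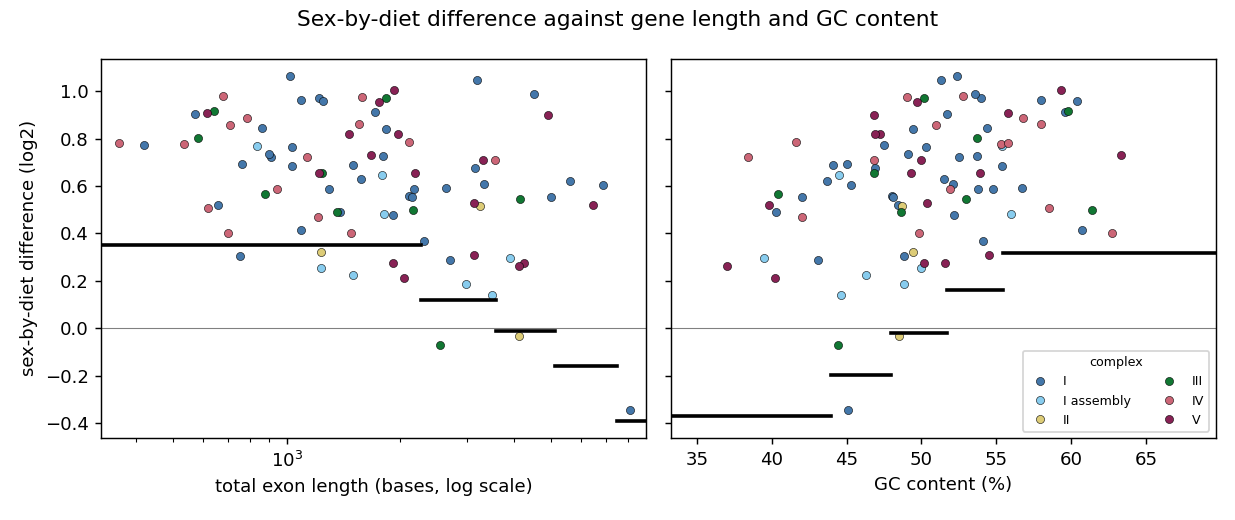
Sex-by-diet difference (log2) of each member against total exon length (left, log axis) and GC content (right), coloured by complex. Black bars are medians of all tested genes in each of 5 equal classes. The members' median is above the bar in each class, and Ndufs1, the single member of the longest class, is lowest at -0.34.

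The 3 libraries high in Krt10 bore on the size of the effect. Without them the sex-by-diet difference was called in 71 members (70 higher and Ndufs1 lower), with a median of 0.58. What share of all tested genes was called in that fit is not given here. Without them and with the offsets it was called in 49 members, all higher, with a median of 0.33, where 26.9% of all tested genes were called.

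**Figure D5:**
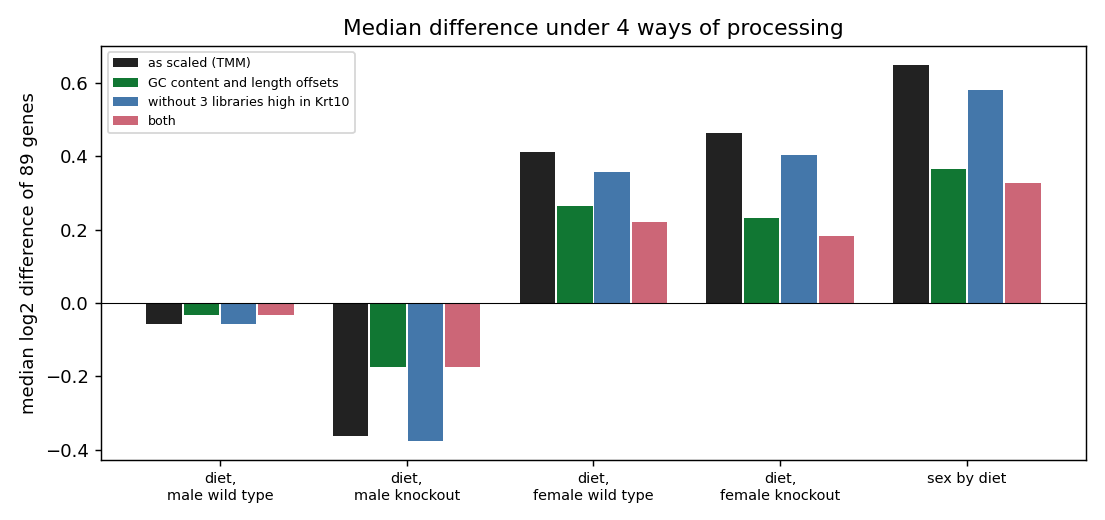
Median log2 difference of the 89 genes for the diet contrasts and the sex-by-diet contrast under 4 ways of processing. Bars start at 0. The direction is kept in each contrast, and the sex-by-diet median goes from 0.65 to 0.36 with offsets, 0.58 without the 3 libraries and 0.33 with both.

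Other genes of the pathway were counted from fixed lists for the same sex-by-diet contrast, in which 21.6% of all tested genes were higher and 23.6% lower. Of 40 tested assembly factors outside the rule, 16 were higher and 2 lower, led by Cox19 (0.87 ± 0.12), a copper-handling protein, Ecsit (0.78 ± 0.11), which assists complex I assembly, and Cox18 (0.93 ± 0.17), which inserts a complex IV subunit. The 2 lower ones were Taco1 (-0.34 ± 0.13) and Lrpprc (-0.29 ± 0.12), which act on mitochondrial mRNAs. Of 14 genes of coenzyme Q and cytochrome c, 7 were higher, including cytochrome c itself (Cycs, 0.34 ± 0.13), and Coq10b was lower (-1.5 ± 0.30). Of 18 citrate cycle genes 8 were higher and 0 lower, with Mdh2 at 0.74 ± 0.11, Ogdh at 0.50 ± 0.11 and Cs at 0.33 ± 0.09.

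Of the 13 subunits encoded by mitochondrial DNA, 0 were higher and 2 lower, against 21.6% and 23.6% of all tested genes, so the lower share was under the background. The 2 were mt-Nd5 (-1.52 ± 0.38) and mt-Nd2 (-0.76 ± 0.30), and the median of the 13 was -0.35. Their summed level was 99620 to 123400 CPM in female wild type chow, 52780 to 116700 CPM on high fat, 103600 to 121500 CPM in female knockout chow and 53040 to 95310 CPM on high fat. The female knockout diets did not overlap in that sum and the female wild type diets did.

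Among 15 regulators 2 were higher and 4 lower, shares under and near the 21.6% and 23.6% of all tested genes. Esrra, which encodes ERR-alpha, and Polrmt, the mitochondrial RNA polymerase, both had 0.53 ± 0.13. Ppara, a fatty acid receptor (-2.60 ± 0.37), Nrip1, a corepressor (-1.48 ± 0.27), Ppargc1a, which encodes PGC-1alpha (-0.89 ± 0.25), and Gabpa, a subunit of GABP (-0.47 ± 0.11), were lower. In male knockout, Ppargc1a rose on high fat by 0.93 ± 0.25 (adjusted p = 0.0318) while the 5 called members fell.

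Markers of other cells moved in the same contrast. Of the fast-fibre markers 7 of 8 were higher (median 0.56) and of the slow-fibre markers 4 of 8 (median 0.57), while 5 of 8 fibroblast markers (median -1.15), 6 of 7 macrophage markers (median -1.07) and 4 of 6 adipocyte markers (median -1.31) were lower. The summed fast-fibre level was 140500 to 158400 CPM in female wild type chow, 157300 to 196600 CPM on high fat, 135700 to 142300 CPM in female knockout chow and 177700 to 194600 CPM on high fat, so the diets overlapped in wild type and not in knockout. The summed fibroblast level was 1432 to 2525 CPM, 533 to 1402 CPM, 1507 to 2059 CPM and 916 to 1188 CPM in the same order, and no marker of these lists was at 0. Male knockouts ran the other way, from 178500 to 191100 CPM on chow to 152100 to 157700 CPM on high fat for the fast-fibre sum and from 184 to 711 CPM to 656 to 912 CPM for the fibroblast sum. Their part in the members' values was not tested.

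Because the members moved together, their promoters were searched for 4 sequences bound by known regulators of these genes, on both strands. RefSeq promoter windows (GRCm38.p6, from 250 bases before to 50 after a gene's start) were matched for 72 of 89 members. The NRF1 sequence, a palindrome whose letters are the capitals shown for Ndufa11, stood in 7 of them (9.72%) against 1.47% of 17491 genes, and the YY1 sequence, in capitals for Atp5j, in 6 (8.33%) against 1.41%. The ERR sequence TCAAGGTCA stood in 2 (2.78%) against 0.377%, and the ETS sequence ACCGGAAGT in 1 (1.39%) against 1.59%. A match describes letters only, and windows without one were the majority.

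The 150 bases before the start are shown for 4 members called in the sex-by-diet contrast, with the match in capitals: NRF1 for Ndufa11 (chr17:56717612-56717761, plus strand) and Atp5g2 (chr15:102671048-102671197, minus strand), YY1 for Atp5j, a stalk subunit (chr16:84834977-84835126, minus strand), and ERR, in reverse complement, for the ring subunit gene Atp5g3 (chr2:73911327-73911476, minus strand). The matches begin 60, 42, 88 and 52 bases before the start, and the sequences and starts are from RefSeq. For Atp5g2 and Atp5j the stretches lie inside the gene bounds of GENCODE M21, which reach to 102672352 and 84835625.
Ndufa11: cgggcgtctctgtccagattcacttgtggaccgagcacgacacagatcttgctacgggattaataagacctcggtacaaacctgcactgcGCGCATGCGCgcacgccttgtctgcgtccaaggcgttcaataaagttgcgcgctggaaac
Atp5g2: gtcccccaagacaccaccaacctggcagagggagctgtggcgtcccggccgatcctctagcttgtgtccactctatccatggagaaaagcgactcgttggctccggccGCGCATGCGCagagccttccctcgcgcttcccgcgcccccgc
Atp5j: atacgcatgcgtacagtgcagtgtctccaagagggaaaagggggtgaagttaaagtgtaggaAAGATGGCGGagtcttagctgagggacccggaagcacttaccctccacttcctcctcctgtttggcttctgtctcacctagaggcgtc
Atp5g3: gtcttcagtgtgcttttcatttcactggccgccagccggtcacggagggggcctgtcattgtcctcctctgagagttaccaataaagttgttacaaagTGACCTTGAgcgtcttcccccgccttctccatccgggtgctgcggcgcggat

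The sex-by-diet differences of these 4 genes were 0.96 ± 0.15, 0.73 ± 0.14, 0.53 ± 0.13 and 0.65 ± 0.13. With offsets they were 0.38, 0.08, 0.41 and 0.49, and Atp5g2 was no longer called (adjusted p = 0.554). Members with an NRF1 match were not all called: Uqcrc1 (0.54 ± 0.12), Atp5k (0.91 ± 0.19) and Ndufaf5 (0.65 ± 0.15) were, whereas Cox6a1 (0.40 ± 0.19) and Ndufaf4 (0.30 ± 0.14) were not. This split depended on the processing, since with offsets Ndufaf4 was called (0.52, adjusted p = 5.14e-05), Cox6a1 stood at -0.37 (adjusted p = 0.0798) and Atp5g2 lost its call.

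Counting could blur some members. In 25 of 89 a transcript of another gene matched at 95% identity or more over at least 200 bases. In 8 the matching genes held counts above 5% of the member's own, among them Ndufab1 (23.4%), Atp5h (16.1%) and Ndufa12 (9.43%). The matches of Ndufb5 (Mrpl47, 7.18%), Ndufb6, Ndufa13 and Uqcrc2 were not copies elsewhere but protein-coding genes overlapping them on the opposite strand. Exons of 32 members overlapped those of another gene, 29 on the opposite strand, and values of Ndufa13, Ndufaf2 and Ndufb6, where at least 25% of the exon length was shared, are less certain because the strand setting of the counting is not given in the sources used here.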

How the data were processed

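Gene counts per library were deposited by the authors as whole numbers without scaling. Per the labels' protocols, polyA RNA of powdered muscle was prepared with a stranded kit. The submitters' processing notes name bcl2fastq, featureCounts and mm10, and the strand setting is not given in the sources used here. Symbols, positions and lengths were taken from GENCODE M21, which matched 37693 of 39017 identifiers. Counts were scaled by TMM and tested with edgeR 4.0.16 (limma 3.58.1, R 4.3.3): genes were kept by filterByExpr with a minimum count of 10, the 8 groups shared 1 robust quasi-likelihood fit, and p-values were adjusted by Benjamini-Hochberg over 14024 genes. The biological coefficient of variation was 14.2%. The p-values set group differences against the spread between these animals' libraries, estimated over all 8 groups together. The code was tested on simulated data.

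Of 465 library pairs, 0 were identical, and the lowest chi-square per degree of freedom was 4.67. Members, gene lists and tests were chosen with earlier results of these data known. Named genes were up to 8 called members of smallest p in each direction of the averaged and sex-by-diet contrasts, up to 5 in each direction of the others, the 3 of smallest p where none was called, isoform pairs, complex II, the alpha and beta subunits of complex V, and the extremes of level. Genes of the other pathway lists were named by smallest p, except that Taco1, Lrpprc, Cycs, Cs and the male knockout value of Ppargc1a were chosen after their values were seen. Alternatives were DESeq2 1.42.0 and its size factors, no filter, GC content and length offsets, other groupings of libraries, a replicate term, leaving out libraries or mitochondrial genes, and fits of 2 groups alone. Offsets together with leaving out libraries high in Krt10 was added after seeing the data. The values of 1 member called in the average sex contrast are not reported here.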

Additional observations from a re-analysis of the deposited data

Results flagged for a closer look

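Diet changes differed between females and males in 75 members by the sex-by-diet test itself. Those of smallest p were 1.004 for Atp5d, 0.964 for Ndufa11, 0.977 for Cox5b, 0.915 for Ndufs7, 1.046 for Ndufv3, 0.979 for Cox6a2, 0.9 for Atp5g1 and 0.973 for Ndufb10 on the log2 scale, and -0.344 for Ndufs1 was the single lower value.

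In groups of 4 libraries, a single library stood far from the other 3 in 9 of 132 comparisons. These covered 21 genes and the median deviation of the members, where chance flags about 5% of groups, or 1 in 20. Male wild type high fat 3 was high for Atp5d (395.7 CPM), Ndufa11 (134.4 CPM), Ndufb10 (282.6 CPM), Ndufs7 (264.4 CPM) and Ndufv3 (115.7 CPM). These genes vary together, so the 5 values are not independent. Atp5d was high in female wild type high fat 3 (469.1 CPM), and Ndufaf5 was high in female wild type chow 4 (48.73 CPM), a library whose own title names another group. In male knockout chow, Ndufb4 stood apart in library 2 (130.7 CPM) and Ndufa4l2 in library 4 (4.826 CPM).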

How the results depend on the processing

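The direction of the members' median was kept in the sex-by-diet contrast under every alternative, with 70 to 81 members called when 1 library was left out and 49 called with GC content and length offsets and without the libraries high in Krt10. Leaving out 1 library gave 0 to 1 calls for the genotype average, 0 to 4 for the diet average, 7 to 26 for the sex average, 0 to 1 for genotype in males on chow, 0 to 14 for diet in male knockout, 31 to 51 in female wild type and 0 to 68 in female knockout. The genotype average gave 1 call, Ndufaf4, with the offsets, with the replicate block, with libraries whose title and animal agree, without intermediate Trim63, and with offsets and no libraries high in Krt10. The diet average gave 8 calls by DESeq2, 3 with the ungrouped library added or mitochondrial genes left out, and 0 with DESeq2 size factors, no filter, offsets, grouping by title, agreeing titles, the replicate block, or no libraries high in Krt10 (with or without offsets). The sex average gave 24 with offsets, 17 with the ungrouped library added, 4 without libraries high in Krt10 and 18 without intermediate Trim63. Genotype in males on chow gave 1 call in a fit of the 2 groups alone. Diet in male knockout gave 14 by DESeq2, 3 with no filter, 9 with offsets, 10 by title, 1 with agreeing titles, 28 with the ungrouped library added, 3 with the replicate block, 2 without libraries high in Krt10, 3 without mitochondrial genes and 66 in a fit of the 2 groups alone. Diet in female wild type gave 0 by title, 26 with agreeing titles, 28 without libraries high in Krt10 and 15 with offsets as well, and in female knockout 0 without libraries high in Krt10, with or without offsets. Grouping by title places libraries in genotypes that their Trim63 levels do not match, as given above. The replicate block left 75 members called for sex by diet. Deviations of libraries of the same number were not correlated in common (median correlation 0.03 over 99 pairs, from -0.43 to 0.52), and the labels do not say that a number pairs animals. In the sex-by-diet contrast the offsets turned the sign of 6 members: Cyc1 (-0.011), Cox8a (-0.153), Ndufc2 (-0.031), Cox6a1 (-0.367), Ndufa4l2 (-0.221) and Ndufaf6 (-0.062). In the other contrasts, among the members named by smallest p, the sign turned for Ndufaf5 (genotype, females on chow, 0.02 by title), Ndufaf2 (genotype, females on high fat, -0.004 without female knockout high fat 2, and -0.004 to 0.542 over the libraries left out in turn) and Cyc1 (diet, female wild type, -0.011 with offsets and no libraries high in Krt10). Where offsets, groupings, left-out libraries or fits of 2 groups changed a count, the cause was not tested. Shares of all tested genes called under most of these alternatives are not given here, and those of the main fit do not apply. A changed count therefore cannot be read as particular to the members.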

Other observations

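The library whose animal number appears in no title held 10485009 counts. Its Trim63 level was 107 CPM, and the 89 genes made up 2.61% of its counts from nuclear genes. Its own title names male knockout on high fat, where the 3 grouped libraries had Trim63 at 0.47 to 1.80 CPM.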
